A study of Mus musculus with 10 samples.

Results

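The 10 genes described here encode the enzymes that make nitric oxide from arginine in the mouse heart, together with those that supply, compete for or restrain that synthesis. They were taken by name, out of 54532 genes counted: the nitric oxide synthases Nos2 and Nos3, Gch1 and Gchfr, Ass1 and Asl, Arg1 and Arg2, and Ddah1 and Ddah2. The study sequenced RNA of whole hearts from C57BL/6 mice, 8 weeks old, in a saline group of 5 libraries and a group of 5 libraries taken 24 h after lipopolysaccharide (LPS). LPS is a component of the Gram-negative bacterial outer membrane that is used to model sepsis. No transgene or deletion is labelled in either group, and the labels give no sex, dose or route of injection. Each library carries its own number, and no label says outright that each came from a separate mouse, so p-values measure the spread between these libraries. Columns for the same LPS group in 2 other deposited tables are named for 3 h, and the files do not tell which time is right. The comparison asks how RNA of the heart differs after LPS.

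Nitric oxide is made from arginine by the synthases, which release citrulline and need tetrahydrobiopterin as a cofactor. Nos3 is the endothelial enzyme, controlled by calcium and calmodulin and by its binding to caveolae, whereas Nos2 is the form that inflammatory signals induce in many cell types. Gch1 catalyses the first step of tetrahydrobiopterin synthesis and is restrained by Gchfr, its feedback regulatory protein. Ass1 and Asl rebuild arginine from citrulline, the arginases Arg1 and Arg2 turn arginine into ornithine and urea, and Ddah1 and Ddah2 break down asymmetric dimethylarginine, an endogenous inhibitor of the synthases.

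In LPS hearts the inducible synthase Nos2 rose 2.58-fold while the endothelial synthase Nos3 fell 2.85-fold. Gch1 rose 5.59-fold, with no such change in its regulator Gchfr. Ddah2 fell 3.76-fold, and its paralog Ddah1 did not pass the test. Of the 10 genes, 8 had enough reads to be tested, and Arg1 and Arg2 did not. Among the 8, 2 rose, 2 fell and 4 did not pass an adjusted p of 0.05 (edgeR's quasi-likelihood test, Benjamini-Hochberg adjustment over 13864 tested genes). Those 4 called genes make 50% of the tested ones, beside 39.9% of the 13864 genes in the whole comparison, where 18.9% rose and 21.0% fell. The median log2 fold change was -0.24 over the 8 genes and -0.02 over all genes tested, given as a description of a list chosen by name. The libraries of the 2 groups did not overlap in 5 of the 8, LPS lying above saline for Nos2 and Gch1 and below it for Nos3, Ddah2 and Ass1. Over all tested genes LPS lay wholly above saline in 14.3% and wholly below in 14.1%.

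The libraries held 14607969 to 17012372 reads, and mitochondrial genes took 22.3% to 31.2% of them. Levels are given as CPM, counts per 1000000 reads of tested genes after scaling by TMM, a method that sets the bulk of genes equal between libraries. Cardiomyocyte markers were abundant in every library, at a summed 35237 to 43177 CPM, and the labelled tissue is heart. Saline replicate 5 stood apart from saline replicates 1 to 4. Of the 2617 genes that rose in LPS, its level was above all 4 of them in 67.7%, and of the 2916 that fell it was below all 4 in 62.0%. Fold changes of Nos2, Nos3, Gch1 and Ddah2, and the ratios that involve them, are therefore given with and without this library. Many other values are given only with it. Under total count scaling the median gene had a log2 fold change of -0.30 and the share of rising genes among those changed was 22.9%, against 47.3% with TMM and 50.7% with RLE scaling, and under upper quartile scaling these were -0.18 and 31.1%.

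Nos2 (ENSMUSG00000020826, GRCm38 chr11:78920787-78960254, + strand) stood at 17.7, 20.5, 19.2, 17.8 and 11.3 CPM in saline replicates 1 to 5. In LPS replicates 1 to 5 it stood at 44.3, 29.8, 52.8, 37.1 and 58.9 CPM. All 5 LPS libraries lay above all 5 saline libraries, and the lowest value belonged to saline replicate 5. The mean was 17.3 ± 3.52 CPM in saline and 44.6 ± 11.7 CPM in LPS (SD, n = 5 each), a log2 fold change of 1.37 ± 0.20 (SE; edgeR adjusted p = 0.000157). Without saline replicate 5 the log2 fold change was 1.25. Nos2 was thus readily counted in the saline hearts, with 1548 reads over the 5 libraries against 3147 in LPS.

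Nos3 (ENSMUSG00000028978, GRCm38 chr5:24364810-24384474, + strand) stood at 36.2, 35.2, 31.0, 31.7 and 18.3 CPM in saline replicates 1 to 5. In LPS replicates 1 to 5 it stood at 16.3, 7.08, 12.4, 9.01 and 8.51 CPM. The groups did not overlap, and saline replicate 5 lay between the other saline libraries and the LPS libraries. The mean went from 30.5 ± 7.16 to 10.7 ± 3.69 CPM (SD, n = 5 each), a log2 fold change of -1.51 ± 0.24 (SE; edgeR adjusted p = 0.000408), and -1.64 without saline replicate 5. The last 294 bases of Nos3 lie in exons of Atg9b, an autophagy gene on the opposite strand. With the strand setting of the counting not given in the sources used here, reads there cannot be assigned with certainty, but Atg9b held only 135 reads in all, 120 in saline and 15 in LPS, beside 2733 and 755 for Nos3. Exons of Gm15587, an antisense gene, share another 1040 bases with those of Nos3, and reads there are uncertain in the same way. Only 8 reads were counted for Gm15587, 6 in saline and 2 in LPS. The effect of these overlaps on the Nos3 level was not tested.

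Nos3 is mainly expressed in endothelial cells, and markers of these cells also fell, by unlike amounts. All 8 markers on the endothelial list fell, beside 21.0% of all tested genes, with a median log2 fold change of -1.10. Flt1 (-0.34 ± 0.09), Tie1 (-0.49 ± 0.11) and Cdh5 (-0.51 ± 0.15) fell least. The adhesion molecule Pecam1 fell by more (-1.13 ± 0.11), and the VEGF receptor Kdr fell most (-3.02 ± 0.30). The summed level of the 8 markers was 1456 to 1709 CPM in saline replicates 1 to 4, 1049 CPM in saline replicate 5 and 673 to 792 CPM in LPS. Within that sum, the mean of Kdr went from 300 CPM in saline to 36.9 CPM in LPS. In whole hearts, fewer cells of a type and less RNA per cell cannot be told apart. As a percentage of that sum, a description added after the values were seen, Nos3 was 2.08 ± 0.27 in saline (range 1.74 to 2.49) and 1.45 ± 0.42 in LPS (range 1.05 to 2.05), and the groups overlapped. The part of endothelial RNA in the Nos3 result was not tested further.

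**Figure D1:**
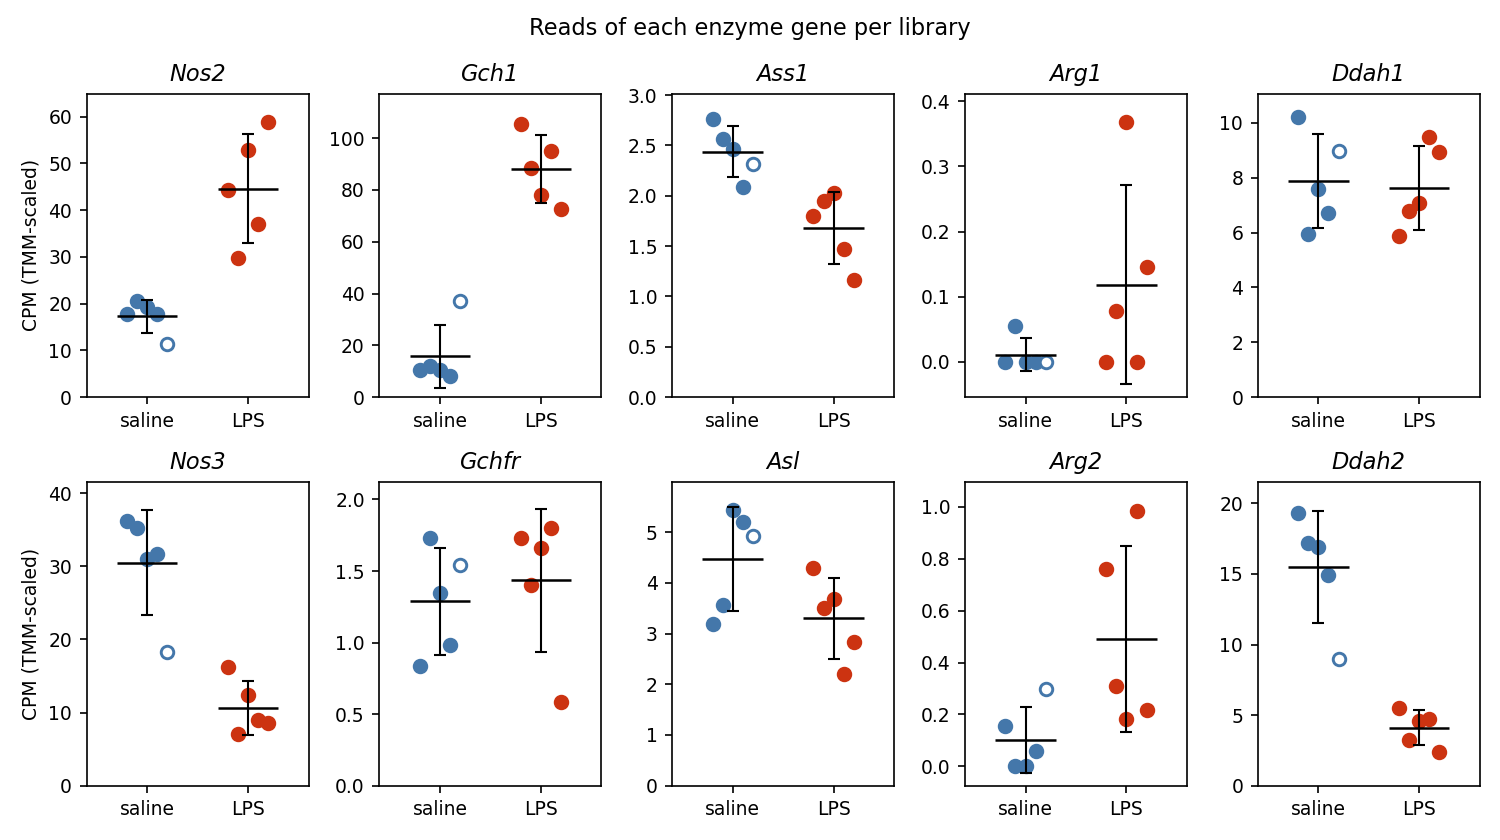
Level of each of the 10 genes in every library, in TMM-scaled CPM on linear axes of their own. Each point is 1 library, the open circle is saline replicate 5, and the horizontal bar and error bar are the mean and SD of 5 libraries. Nos2 and Gch1 lie higher in every LPS library than in any saline library, and Nos3, Ddah2 and Ass1 lie lower. Arg1 stays below 0.4 CPM throughout.

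The balance of the 2 synthases within each library does not depend on how libraries were scaled. Per length of gene, Nos2 held 0.457 to 0.581 of the Nos3 level in the saline libraries and 2.55 to 6.48 times that level in the LPS libraries. Nos3 was the higher one in every saline library and Nos2 in every LPS library. The log2 ratio of their reads was higher by 2.89 in LPS (exact permutation test, two-sided, p = 0.00794, the smallest this design allows; 0.0132 adjusted over the 5 ratios tested). Without saline replicate 5, whose ratio of 0.581 lay with those of the other saline libraries, the difference was 2.92. Their summed level per length was 11.3 ± 2.48 in saline and 12.7 ± 3.02 in LPS, in RPKM (CPM divided by the length of the gene in kilobases), and the Nos2 share of that sum was 34.9% ± 2.20 and 79.5% ± 5.23 (SD, n = 5 each). Nos1, the neuronal form, had 27 reads in each group and was not tested.

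Gch1 (ENSMUSG00000037580, GRCm38 chr14:47153895-47189413, - strand) stood at 10.6, 12.2, 10.4, 8.33 and 37.2 CPM in saline replicates 1 to 5. In LPS replicates 1 to 5 it stood at 105.5, 88.5, 78.1, 95.2 and 72.7 CPM. The 5 LPS libraries lay above all saline libraries, and saline replicate 5 lay between the groups, far above the other 4. With it, the mean was 15.8 ± 12.1 CPM in saline and 88.0 ± 13.1 CPM in LPS (SD, n = 5 each), a log2 fold change of 2.48 ± 0.43 (SE; edgeR adjusted p = 0.00175). Without it, the saline mean was 10.4 ± 1.59 CPM (SD, n = 4) and the log2 fold change 3.08 ± 0.14 (adjusted p = 1.31e-10 by edgeR).

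Gchfr (ENSMUSG00000046814, GRCm38 chr2:119167773-119172390, + strand), whose protein binds the Gch1 enzyme and lets tetrahydrobiopterin inhibit it, ranged from 0.835 to 1.73 CPM in saline and from 0.582 to 1.80 CPM in LPS. The groups overlapped across most of their range. The log2 fold change was 0.16 ± 0.32 (SE; edgeR adjusted p = 0.731), an error that leaves room for moderate changes in either direction. Per length, Gch1 was 0.729 to 2.48 times Gchfr in saline and 4.86 to 12.9 times in LPS. The log2 ratio of their reads was higher by 2.60 in LPS (exact permutation test, two-sided, p = 0.00794; 0.0132 adjusted over 5 ratios) and by 2.89 without saline replicate 5, the saline library with the highest ratio.

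Gch1 changed and its partner Gchfr did not pass the test, so the 250 bases before the RefSeq start of each (GRCm38.p6) are shown for comparison. Capitals mark matches, on either strand, to the consensus of the inflammatory factor NF-kappaB or to the core of the interferon element ISRE (GAAANNGAA). Both were searched by their letters, some of them variable. The bases run 5′ to 3′ along the strand of the gene. They lie at chr14:47189414-47189663 (- strand) for Gch1 and chr2:119167538-119167787 (+ strand) for Gchfr.
Gch1: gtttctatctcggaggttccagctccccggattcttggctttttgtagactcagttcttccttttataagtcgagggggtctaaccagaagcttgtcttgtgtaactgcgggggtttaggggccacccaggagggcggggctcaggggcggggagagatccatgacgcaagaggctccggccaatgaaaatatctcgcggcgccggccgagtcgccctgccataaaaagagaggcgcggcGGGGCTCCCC
Gchfr: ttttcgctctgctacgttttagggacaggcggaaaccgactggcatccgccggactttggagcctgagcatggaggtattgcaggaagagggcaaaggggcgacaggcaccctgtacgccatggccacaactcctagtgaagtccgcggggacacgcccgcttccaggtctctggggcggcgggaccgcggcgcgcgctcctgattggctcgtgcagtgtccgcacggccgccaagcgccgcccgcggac

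The Gch1 window held 1 match to the NF-kappaB consensus, in its last 10 bases, and no ISRE core. Neither element was found in the Gchfr window. Such matches are common, being present in 7.25% (NF-kappaB) and 7.13% (ISRE core) of 32851 promoter windows of this length. Of the motifs of general promoters, the GC box (GGGCGG) was present in both windows and in 32.7% of all windows, and CCAAT in both and in 33.8% of all. TATAAA, present in 12.4% of all windows, was matched in the Gch1 window, on the opposite strand 188 to 183 bases before the start, and not in that of Gchfr. A match describes letters, not bound factors, and these data hold no measurement of binding. RefSeq windows were matched for 5 of the 10 genes, these and Ass1, Ddah1 and Ddah2, and not for Nos2, Nos3, Asl, Arg1 and Arg2.

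Ass1 (ENSMUSG00000076441, GRCm38 chr2:31470207-31520672, + strand), which joins citrulline to aspartate, stood at 2.77, 2.56, 2.47, 2.08 and 2.32 CPM in saline replicates 1 to 5. In LPS replicates 1 to 5 it stood at 1.80, 1.94, 2.03, 1.47 and 1.16 CPM. The groups did not overlap, but the highest LPS library and the lowest saline library were close. The log2 fold change was -0.53 ± 0.22 (SE; edgeR adjusted p = 0.0643), which missed the threshold on 16 to 53 reads per library. It passed under upper quartile scaling (adjusted p = 0.0192 by edgeR) and total count scaling (0.00992), which lower all genes of LPS.

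Asl (ENSMUSG00000025533, GRCm38 chr5:130011258-130029247, - strand), which splits argininosuccinate into arginine and fumarate, stood at 3.18 to 5.44 CPM in saline and 2.21 to 4.29 CPM in LPS, and the groups overlapped. The log2 fold change was -0.43 ± 0.22 (SE; edgeR adjusted p = 0.141), and it too passed under upper quartile and total count scaling (adjusted p = 0.0442 and 0.0229). Within libraries the log2 ratio of Ass1 to Asl differed by -0.11 between the groups (exact permutation test, two-sided, p = 0.643), with values that overlapped widely.

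The arginases were close to the limit of counting. Arg1 (ENSMUSG00000019987, GRCm38 chr10:24915221-24927484, - strand), the abundant liver and macrophage form, had 1 read in the saline libraries, in replicate 2, and 0, 1, 6, 0 and 2 reads in LPS replicates 1 to 5. Most of the 9 LPS reads came from a single library. Scaled for library size, LPS was 11.5 times saline with an exact 95% counting interval of 1.6 to 505, which covers counting error only. Arg2 (ENSMUSG00000021125, GRCm38 chr12:79130777-79156301, + strand), the mitochondrial form, had 3, 0, 0, 1 and 5 reads in saline replicates 1 to 5 and 11, 4, 3, 12 and 3 in LPS replicates 1 to 5. The groups overlapped, since saline replicates 1 and 5 reached the lowest LPS counts. The ratio was 4.69 (2.20 to 11.2) on 9 and 33 reads.

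Neither arginase passed the filter on low counts. With all genes fitted, the log2 fold change of Arg2 was 2.18 (edgeR adjusted p = 0.0293) and that of Arg1 was 2.79 (edgeR adjusted p = 0.109). The last 285 bases of Arg2 lie in exons of Vti1b, a vesicle fusion gene on the opposite strand with 11005 reads and a log2 fold change of -0.06 (adjusted p = 0.696 by edgeR), so a share of the few Arg2 reads may belong to it, which was not tested. The log2 ratio of Arg2 to Arg1 differed by 0.82 between the groups (exact permutation test, two-sided, p = 0.579), on too few reads to say more. Arg1 is abundant in liver, and the hepatocyte list summed to 0.78 to 4.37 CPM in saline and 1.45 to 3.42 CPM in LPS. Most of that was Cyp2e1, with means of 1.98 CPM in saline and 2.47 CPM in LPS. The defining marker Alb had 0 reads. Any part of liver RNA in the Arg1 reads was not tested.

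Ddah2 (ENSMUSG00000007039, GRCm38 chr17:35059035-35062095, + strand) stood at 19.4, 17.2, 16.9, 14.9 and 8.97 CPM in saline replicates 1 to 5. In LPS replicates 1 to 5 it stood at 5.53, 3.27, 4.61, 4.75 and 2.40 CPM. The groups did not overlap, and saline replicate 5 again lay between the other saline libraries and LPS. The mean went from 15.5 ± 3.96 to 4.11 ± 1.26 CPM (SD, n = 5 each), a log2 fold change of -1.91 ± 0.24 (SE; edgeR adjusted p = 3.42e-05), and -2.05 without saline replicate 5. Ddah2 is widely expressed in endothelium, and the fall of the endothelial markers given above stands beside this result too. Its relation to that fall was not tested.

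Ddah1 (ENSMUSG00000028194, GRCm38 chr3:145758675-145894277, + strand) ranged from 5.96 to 10.2 CPM in saline and from 5.88 to 9.50 CPM in LPS, and the groups overlapped almost entirely. The log2 fold change was -0.05 ± 0.18 (SE; edgeR adjusted p = 0.848). Per length, Ddah1 was 0.138 to 0.400 of the Ddah2 level in saline, where saline replicate 5 was the highest, and 0.425 to 1.49 of it in LPS. The log2 ratio of their reads was higher by 1.87 in LPS (exact permutation test, two-sided, p = 0.00794; 0.0132 adjusted over 5 ratios) and by 2.11 without saline replicate 5. The 2 genes together, per length, held 11.7 ± 2.51 RPKM in saline and 4.50 ± 0.73 in LPS (SD, n = 5 each). An intron of Ddah1 holds Rpl36a-ps2, a ribosomal protein pseudogene of the same strand with 602 reads counted apart from it, and no exon of Ddah1 is shared.

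**Figure D2:**
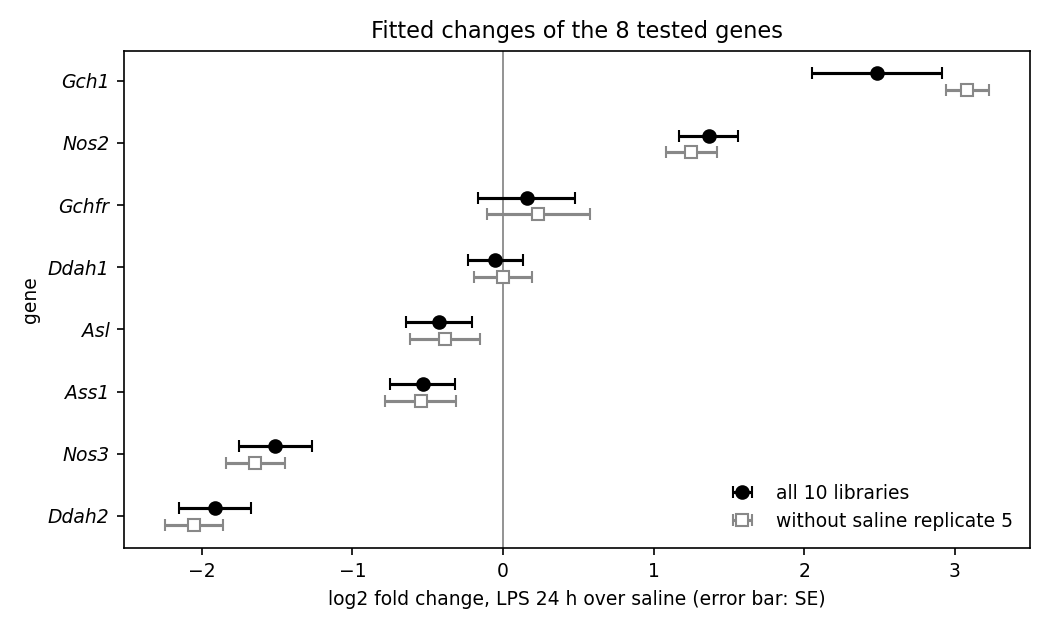
Fitted log2 fold changes of the 8 tested genes, LPS 24 h over saline, with SE as error bars. Black circles use all 10 libraries and grey squares leave out saline replicate 5, which moves Gch1 from 2.48 to 3.08 and leaves the order of the 4 called genes as it was.

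**Figure D3:**
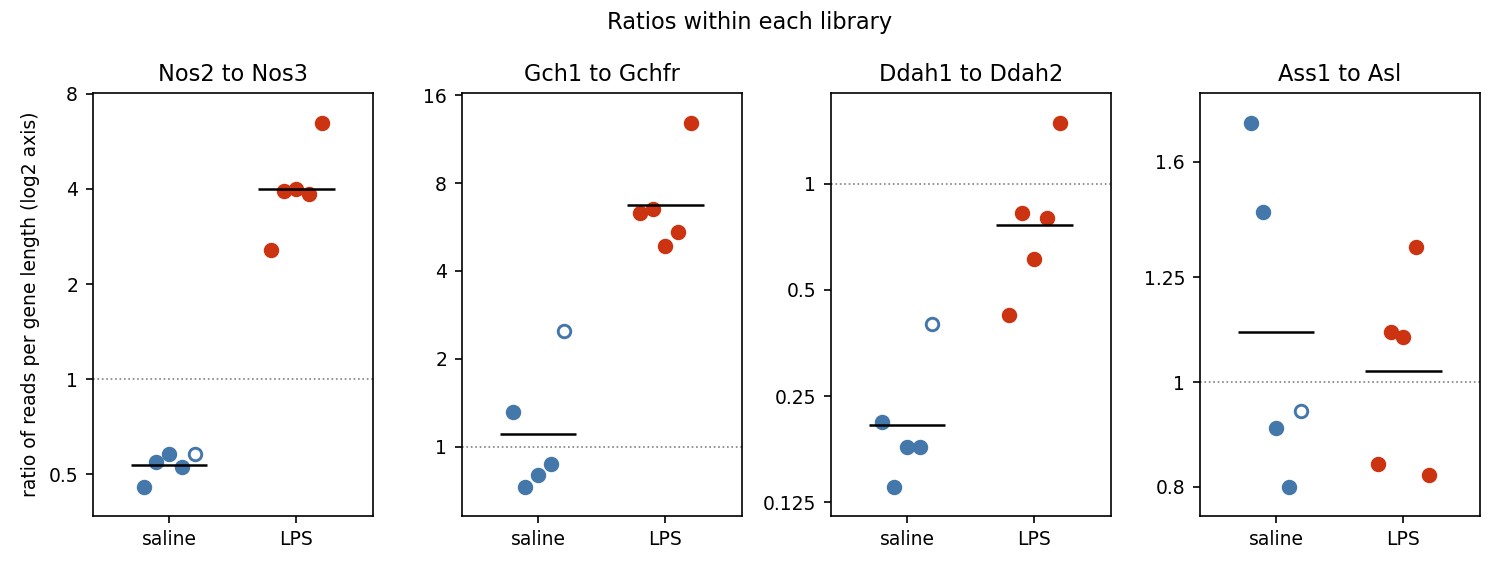
Ratios of 2 genes within each library, per length of gene, on log2 axes. Each point is 1 library, the open circle is saline replicate 5, bars are geometric means of 5 libraries and the dotted line marks equal levels. The groups are apart for Nos2 to Nos3, Gch1 to Gchfr and Ddah1 to Ddah2, and mixed for Ass1 to Asl.

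Levels per length, in RPKM, put the 10 genes in a different order in the 2 groups. In saline, Ddah2 (9.72 ± 2.49) and Nos3 (7.37 ± 1.73) were the highest and lay within their summed SDs of each other. Within each saline library, however, Ddah2 was above Nos3. Nos2 followed at 3.92 ± 0.80, then Gch1 at 2.52 ± 1.93, Gchfr at 2.0 ± 0.58 and Ddah1 at 1.98 ± 0.43, each neighbour within the summed SDs of the next. Without saline replicate 5, Gch1 was at 1.66 ± 0.25, below Gchfr at 1.90 ± 0.62 and Ddah1 at 1.91 ± 0.47 but within the summed SDs of both, and Ddah2 (10.7 ± 1.14) and Nos3 (8.11 ± 0.63) were then further apart than their summed SDs. Ass1 (1.01 ± 0.11) and Asl (0.924 ± 0.21) were lower and alike, and Arg2 (0.0716, or 0.0375 without saline replicate 5) and Arg1 (0.005) were far below them.

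In LPS, Gch1 was the highest at 14.1 ± 2.10 and Nos2 next at 10.1 ± 2.65, again within the summed SDs. Within libraries, Gch1 was above Nos2 except in LPS replicate 5. Ddah2 and Nos3, both at 2.58, then lay with Gchfr at 2.22 and Ddah1 at 1.92 in a group whose neighbours did not differ beyond their spread. Ass1 at 0.697 ± 0.15 and Asl at 0.684 ± 0.17 stayed at or near the bottom of the 8 tested genes, and Arg2 reached 0.344 ± 0.25 and Arg1 0.0531 ± 0.07. The levels of the enzymes that recycle citrulline were thus below those of the induced synthase in both groups.

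Other genes of the pathway were taken from lists chosen by function, and their counts stand beside the 18.9% of all tested genes that rose and the 21.0% that fell. No list was tested against other genes. None of the 6 other enzymes of tetrahydrobiopterin synthesis and recycling rose or fell, with a median log2 fold change of -0.10. The most abundant of them, Spr, which makes the last step of that synthesis, had 39.6 ± 2.97 CPM with saline and 39.4 ± 8.40 CPM with LPS. Under total count scaling 4 of the 6 fell, and 1, Pcbd1, did so without LPS replicate 2.

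Of 11 tested NOS relatives and binding partners, 6 fell and 1 rose, beside 21.0% and 18.9% of all tested genes, with a median log2 fold change of -0.39. Cav1, the caveolar protein that holds Nos3 inactive, fell by 2.60 ± 0.28 on the log2 scale. Dynll1, a dynein light chain first described as an inhibitor of neuronal NOS, fell by 1.78 ± 0.17, and Nostrin, a Nos3 trafficking protein, fell by 0.78 ± 0.16. Cav1 and Nostrin are abundant in endothelial cells, whose markers fell as given above, and their part in these falls was not tested. The riser was Cav3 (0.40 ± 0.11), the muscle caveolin, which did not pass under upper quartile or total count scaling.

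Of 7 tested carriers of arginine and ornithine, 4 rose and none fell, beside 18.9% and 21.0% of all tested genes, with a median log2 fold change of 0.34. Slc7a2, a cationic amino acid carrier, went from 6.28 ± 3.48 to 72.2 ± 26.2 CPM, a log2 fold change of 3.53 ± 0.39 that exceeded those of Nos2 and Gch1. Slc7a7 rose by 0.78 ± 0.19 and Slc7a6 by 0.57 ± 0.12, both light chains of arginine exchangers. Slc7a1, the other widely expressed cationic carrier, passed at 0.34 ± 0.12 with all libraries but not when any 1 of saline replicates 2, 3 and 4 or LPS replicates 3 and 5 was left out. Under total count scaling 2 of the 7 rose and 1 fell.

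Downstream of arginase, 3 of 16 tested enzymes of ornithine, polyamine, creatine and urea metabolism rose and none fell (median 0.14), a share of risers close to the 18.9% of all tested genes, so the count shows nothing about the list. The risers were Sat1, which acetylates polyamines for export and breakdown (1.37 ± 0.21), Odc1, which makes putrescine from ornithine (1.08 ± 0.09), and Azin1, which protects Odc1 from antizyme (0.78 ± 0.11). Under total count scaling 3 of this list rose and 3 fell, and leaving out replicate 5 of either group made Aldh18a1 fall. Sms rose without saline replicate 5, Srm without LPS replicate 1 and Oaz1 without LPS replicate 5, so 3 to 4 genes rose with single libraries left out. Of 8 tested genes of arginine methylation and methylarginine breakdown, 2 rose, Prmt9 (0.39 ± 0.12) and Prmt3 (0.37 ± 0.12), both arginine methyltransferases, and none fell, again near the 18.9% of all tested genes that rose. Leaving out saline replicate 3, saline replicate 4 or LPS replicate 3 left only 1 riser, and Prmt2 fell without saline replicate 4 or LPS replicate 3. Under total count scaling none rose and 2 fell.

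Among 7 genes of nitric oxide removal, 2 rose and 2 fell, not far from the 18.9% and 21.0% of all tested genes. Cygb, a globin that oxidises nitric oxide, fell by 2.11 ± 0.17, and Cyb5r3, a reductase that can return such a globin to its active state, fell by 0.58 ± 0.11. The thioredoxin system, which removes nitrosyl groups from proteins, went the other way, with Txnrd1 up by 1.41 ± 0.13 and Txn1 by 0.84 ± 0.14.

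Of 16 tested signals, receptors and factors listed as inducers of Nos2 or Gch1, 14 rose and none fell, beside 18.9% and 21.0% of all tested genes. Their median log2 fold change was 1.73. The interferons Ifng (1 read in saline, 9 in LPS) and Ifnb1 (0 and 23) had too few reads to be tested. The cytokines Il6 (6.65 ± 1.57), Il1b (3.31 ± 0.92) and Tnf (3.0 ± 0.90) had the largest changes. Saline replicate 5 held 185 of the 186 saline reads of Il6, 204 of 264 of Il1b and 136 of 172 of Tnf. Without it Il1b had a log2 fold change of 5.17 and Tnf one of 4.98, and 15 of the list rose. With any other single library left out 11 to 13 rose, and Irf1, an interferon-regulated transcription factor, lost its call in each of those fits. No fold is given for Il6 without it, since the other saline libraries held 1 read together. Tnf did not pass when any 1 of saline replicates 1 to 4 or LPS replicates 1 and 2 was left out, nor Il1b without saline replicate 2. Saline replicate 5, with the highest Gch1 level of the saline group, was also the saline library with most reads of these 3 cytokines. Its Nos2 level was the lowest of that group. How these values of a single library relate was not tested.

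**Figure D4:**
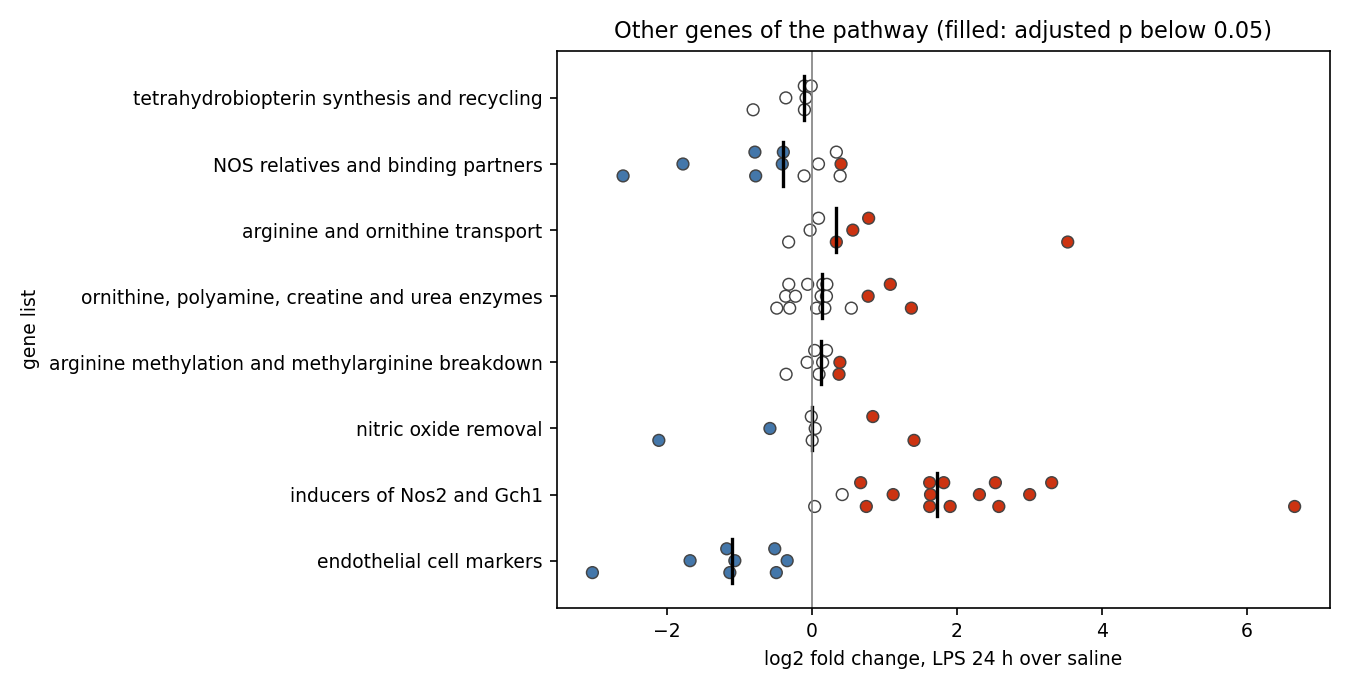
Log2 fold changes, LPS 24 h over saline, of every tested gene in 7 lists of the pathway and in the endothelial marker list. Each circle is 1 gene, filled red where it rose, blue where it fell (adjusted p below 0.05, edgeR) and white where it did not pass, and the black bar is the median of the list. The inducers lie mostly to the right with a median of 1.73, all 8 endothelial markers to the left, and the tetrahydrobiopterin enzymes around 0.

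Cells that enter an inflamed heart can carry Nos2 and Arg1, so their markers stand beside these results. Of 9 macrophage and monocyte markers 1 rose and 3 fell, beside 18.9% and 21.0% of all tested genes. Ly6c2 rose (1.48 ± 0.35), while Ccr2 (-1.50 ± 0.30), Csf1r (-1.07 ± 0.10) and Lyz2 (-0.51 ± 0.15) fell. Lyz2 lost its call when saline replicate 2 was dropped, and likewise on dropping number 2 or number 4 of the LPS group. Cd68 and C1qa also fell without LPS replicate 1. The summed level of the 9 markers was 444 to 631 CPM in saline and 323 to 483 CPM in LPS. Of 9 neutrophil markers 4 were tested and 2 rose, S100a8 and Csf3r, beside 18.9% of all tested genes. Without saline replicate 5 all 4 rose. Neither S100a8 nor Csf3r passed when saline replicate 1, 2 or 4 or LPS replicate 1, 3 or 5 was left out. Their sum was 1.29 to 4.01 CPM in saline replicates 1 to 4, 23.1 CPM in saline replicate 5 and 13.3 to 39.0 CPM in LPS, with 0 reads of the granule protease Elane. In saline replicate 5, a single library, the neutrophil sum lay in the range of the LPS libraries, and Nos2 was at 11.3 CPM. No lymphocyte marker had enough reads to be tested. The part of these cells in the levels of Nos2 and Gch1 was not tested.

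The authors' deposited table of Reactome terms, each with numbers of changed genes and a p-value of their own, named Nos3 and Ddah2 in "Metabolism of nitric oxide". Of the 14 genes of that term, the authors' deposited table gives 9 as changed, 1 up and 8 down (p = 0.0336, adjusted p = 0.195), and besides Nos3 and Ddah2 they included Cav1, Cygb, Nosip and Nostrin. "Nitric oxide stimulates guanylate cyclase", with Nos2 and Nos3, had 4 genes up and 5 down of 16 in the authors' deposited table (adjusted p = 0.367). "Metabolism of polyamines", which named Arg2, had 29 up and 3 down of 74 in the authors' deposited table (adjusted p = 0.512). In the authors' deposited table these terms therefore missed an adjusted p of 0.05, and Gch1 appeared with Nos3 in "Metabolism of cofactors" (adjusted p = 0.941). The authors' share of changed genes over all genes is not given here, so these counts were not set against it. The 74 genes of the polyamine term are more than the 16 tested enzymes of the ornithine and polyamine list above, of which 3 rose.

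The genes whose level followed the synthases most closely over the 10 libraries, among 13115 genes of at least 1 CPM, are given as a description, since both groups and a common scaling enter every such correlation. For Nos2 they were Serpine2, an inhibitor of serine proteases (Pearson r of log2 CPM 0.97), Adgrg2, an adhesion receptor (0.96), and Tns3, a focal adhesion protein (0.95). All 3 rose, by 0.66, 1.70 and 0.54 on the log2 scale. For Nos3 they were Smim1 (r = 0.99), Cmtm3 (0.99) and Smo, the Hedgehog signal transducer (0.99), which fell by 1.93, 1.67 and 1.35. Serpine2, Adgrg2 and Tns3 stood at 30.4, 0.891 and 25.1 CPM in saline replicate 5, beside saline means of 33.3, 1.26 and 29.5 CPM. These genes were picked for their likeness to Nos2 over the same 10 libraries, saline replicate 5 included. Sharing its low value with Nos2 therefore follows from the choice and tells nothing further about that library. Smim1, Cmtm3 and Smo also lay below their saline means there.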

How the data were processed

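Read counts per gene of the 10 libraries were used as the authors deposited them. Bowtie 0.12.2 and mm9 are named in the submitters' processing notes, yet all 10 genes have the start, end and exonic length of GENCODE M21, so coordinates are given as GRCm38. Strand setting and counter were not given in the sources used here. Reactome p-values are from the authors' deposited table. Another 30 columns of values per sample were not used. Of these, 10 in other tables are named for 3 h, while the labels give 24 h for the same group, and the files do not tell which is right.

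Counts were fitted with edgeR 4.0.16 in R 4.3.3 (filterByExpr, minimum count 10 and minimum total count 15; TMM; robust quasi-likelihood test; LPS against saline, no covariate), with Benjamini-Hochberg adjustment over 13864 genes. SEs of log2 fold changes come from the F statistic. Ratios used log2(reads + 0.5) and exact permutation tests (scipy 1.17.1). Alternatives were total count, upper quartile and RLE scaling, TMM without the 20 most abundant genes, other filters, DESeq2 1.42.0, limma 3.58.1 voom, a replicate block and each library left out. The fit was tested on simulated data with 50 changed genes at each fold. It recovered 16 at 1.5-fold, 31 at 2-fold, 44 at 4-fold and 50 at 8-fold. Of its 150 calls, 9 were false. Only those 50 genes per fold were changed, out of 13864, whereas 5533 were called in the real comparison. Whether recovery and false calls are alike in the real data was not tested.

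The genes and lists were chosen with earlier results of these data known. Named are the 10 genes, up to 3 genes past the threshold with the largest change per list (or else the most abundant), overlapping genes with at least 100 reads, the 3 genes most like each synthase, and markers where their levels stand beside a result. Slc7a1, Cyb5r3, Pcbd1, Aldh18a1, Sms, Srm, Oaz1, Prmt2, Irf1, Ifng, Ifnb1, Nos1, Nosip, Gm15587 and the markers named were chosen after their values were seen.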

Additional observations from a re-analysis of the deposited data

Results flagged for a closer look

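Among 30 groups of 5 libraries checked for a value far from the others, 2 stood out. Chance gives about 1 per 20 groups, so 2 is near the number that chance gives. Gch1 in saline replicate 5, at 37.2 CPM, lay far above the 8.33 to 12.2 CPM of saline replicates 1 to 4 and below all LPS libraries. Arg1 in saline replicate 2, at 0.0557 CPM, was the only saline library with a read, and that value is 1 read. With no read in the others of its group, any read there would have been flagged.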

How the results depend on the processing

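Nos2, Nos3, Gch1 and Ddah2 kept their direction and their call under all 19 alternatives, with log2 fold changes of 1.09 to 1.5, -1.79 to -1.37, 2.25 to 3.08 and -2.20 to -1.76. Under upper quartile and total count scaling 4 of the 10 genes fell, Ass1 and Asl being added. These scalings lower all genes of LPS. Without the filter on low counts Arg2 also rose. Gchfr was -0.11 under total count scaling, and Ddah1 ranged from -0.113 to 0.0784 with single libraries left out, both without a call. The log2 ratio of Ass1 to Asl ranged from -0.230 to 0.0469 with single libraries left out, never past the threshold. The replicate numbers did not pair the libraries: same-numbered libraries deviated together with correlations of -0.05 to 0.16, and 1 of the 5 saline libraries matched its own number best. With the replicate block 5418 genes changed, against 5533 without it, and the calls of the 8 tested genes were the same. The ratios of Nos2 to Nos3, Gch1 to Gchfr and Ddah1 to Ddah2 were 2.89, 2.60 and 1.87 with the replicate block, where 32 sign flips allow no p below 0.0625 (adjusted p = 0.104, exact test). Depth limits the arginases, at 9 and 33 reads in LPS.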

Other observations

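Saline replicate 5 lay on the LPS side of saline replicates 1 to 4 for Nos3, Gch1 and Ddah2 and on the opposite side for Nos2. Among the 2617 rising genes it was below all 4 of those libraries in 169, or 6.46%, and Nos2 was one of these. Its level was 11.3 CPM, while theirs were 17.7 to 20.5 CPM. A pseudogene in an intron of Gch1, Gm49134, had 5 reads in saline and 42 in LPS. It was named after its values were seen, and whether its reads come from the Gch1 transcript was not tested.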
